A study of Bos taurus with 4 samples.

Results

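The genes of the transforming growth factor beta (TGF-beta) route from ligand to nucleus were followed in bovine gamma delta T cells treated for 4 h with an apple polyphenol extract (APP). They were chosen by symbol as the ligand TGFB1, the receptors TGFBR1 and TGFBR2, the signal carriers SMAD2, SMAD3, SMAD4 and SMAD5, and the inhibitors SMAD7, SKIL and SMURF2. Of these 10 genes, 7 had a probe set carrying that 1 symbol, 10 probe sets in all among 24016 tested, and they stand among 9155 named genes. SMAD7, SKIL and SMURF2 had none and were not analysed here, so the inhibitory arm is described only through a wider pathway list.

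Gamma delta T cells are lymphocytes with an alternative T cell receptor and are abundant in the blood of young cattle. Per the labels, blood of calves aged 1 to 6 months was sorted to over 97% purity and the cells were rested overnight. Cells of calf 301 and of calf 303 were each given either phosphate-buffered saline (PBS, the vehicle) or an aqueous extract of APP at 42.2 µg/ml, 1 Affymetrix array per calf and treatment, 4 arrays in all. Neither the breed of the calves nor the make-up of the extract is given in the sources used here, and each treatment rests on 2 animals.

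TGF-beta is made as a latent precursor, is freed outside the cell, and joins a type II receptor (TGFBR2) to a type I receptor (TGFBR1). The active type I receptor phosphorylates SMAD2 and SMAD3, which pair with SMAD4 and enter the nucleus, while SMAD5 serves the related bone morphogenetic protein (BMP) receptors. In T cells the pathway is known for restraining proliferation and effector cytokines and for supporting tissue-resident and regulatory states.

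Each deposited value is a ratio of a probe set's signal to its own median over the 4 arrays. Values are given here as log2 of that ratio (0 is the probe set's median), averaged over the probe sets of a gene, and a change is APP minus PBS within a calf. Such values show differences between arrays but no level, so no gene's amount can be set against another's, and probe sets close to background cannot be recognised. The median ratio per array lay between 0.991 and 0.995. The labelled cell type could not be checked against its defining markers for the same reason. The list of 13 gamma delta T cell markers also held the CD3 genes and CD247, which all T cells share. Of these 13 markers 6 had a probe set, and CD3G (-0.47), CD247 (-0.53) and CD163L1 (-1.08) fell while TRGC4, CD3D and CD3E did not pass the test. Both measured B cell markers fell as well (MS4A1 by 0.56 and CD79A by 0.80, changes of -0.56 and -0.80), with mean log2 ratios of 0.28 and 0.38 on the PBS arrays and -0.43 and -0.27 on the APP arrays. Of the 3 CD4 and CD8 genes, CD8A rose by 1.08 and CD8B changed by -0.64, a fall. The part of such cells in the results was not tested. Over all genes 23% rose and 29.7% fell. In a bulk sample fewer cells of a type and less RNA per cell cannot be told apart. All tests are limma's moderated test with the calf as a block and Benjamini-Hochberg adjustment over all genes, at an adjusted p of 0.05.

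Of the 7 measured genes 4 rose (TGFB1, SMAD3, TGFBR1 and TGFBR2), 1 fell (SMAD4) and 2 did not pass (SMAD2 and SMAD5). Over all genes 52.7% passed in either direction, 23% rising and 29.7% falling, so calls were common in this comparison. In fits without the block that left out 1 array, fewer of the 7 and fewer of all genes passed. The median change of the 7 genes was 0.32, against 0.01 over all genes. With 1 array left out it lay between 0.096 (without PBS of calf 303) and 0.57 (without PBS of calf 301). The array scale matters for these directions. Bacterial hybridization controls (bioB, bioC and bioD), meant to be added to every array in equal amount, read higher in APP by 0.85 in the mean. They ranged from 0.62 (bioD) to 0.99 (bioB). The control cre, higher by 0.24, was not used for scaling. Scaling the arrays to bioB, bioC and bioD moved the median change of all genes to -0.84. On that scale 3.12% of all genes rose and 89.4% fell, TGFB1 and SMAD3 still rose, and TGFBR1 and TGFBR2 changed sign.

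**Figure D1:**
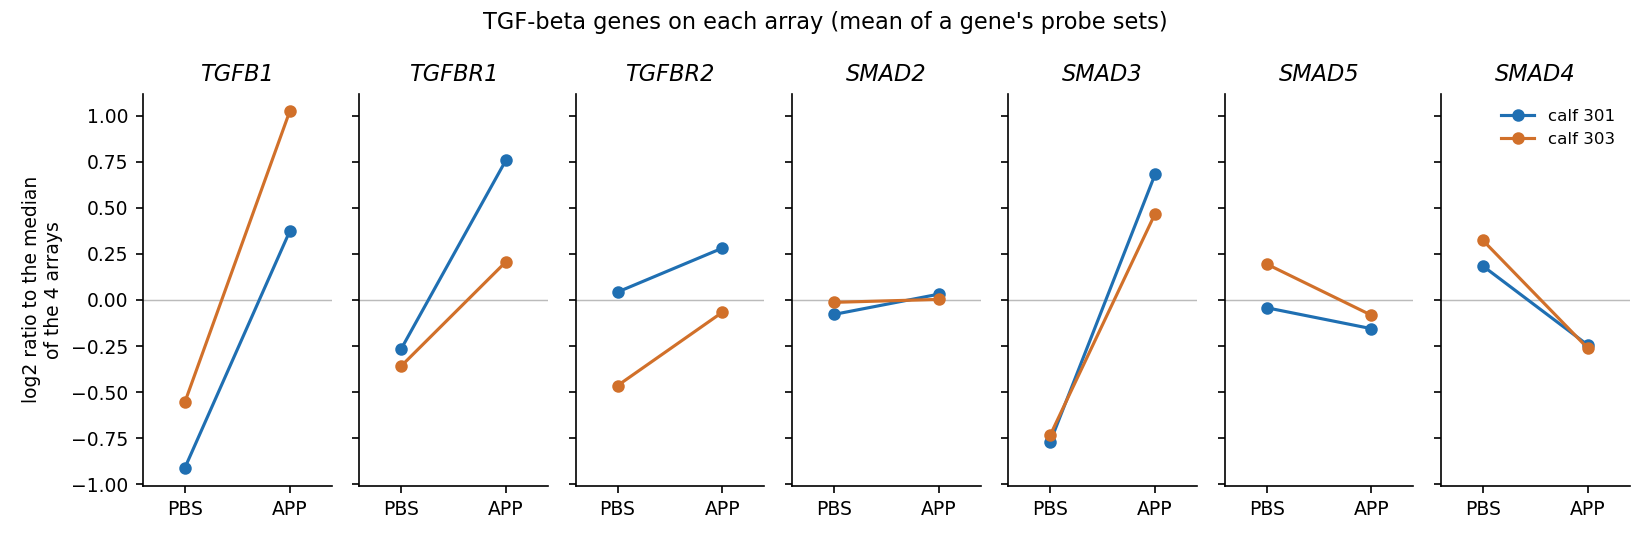
Log2 ratio of each measured TGF-beta gene (vertical axis, relative to the gene's median over the 4 arrays) under PBS and APP, with 1 line per calf. TGFB1 and SMAD3 went from at most -0.55 under PBS to at least 0.37 under APP, SMAD4 went the other way, and the 2 calves moved in the same direction for all 7 genes.

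The ligand gene rose in both calves. TGFB1, which encodes the main TGF-beta of lymphocytes, stood at -0.91 with PBS and 0.37 with APP in calf 301, and at -0.55 and 1.02 in calf 303. Both APP arrays were above both PBS arrays. The rise was 2.70-fold (log2 change 1.43 ± 0.21, SD, n = 2 calves, limma adjusted p = 7.64e-05), and 2.13% of all genes rose as much or more. It remained a rise at 0.58 when scaled to the hybridization controls. Left out one at a time, the arrays gave changes between 1.11 and 1.76, all past the threshold in fits without the calf block.

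Platelets and monocytes also make TGFB1. None of the 4 measured platelet markers (PF4, ITGA2B, ITGB3 and SELP) passed the test, with changes between -0.21 and 0.18. Of 10 measured monocyte, macrophage and dendritic cell markers, 3 rose and none fell, beside 23% and 29.7% over all genes. CD68 rose by 2.31, and CD14 and FCGR1A by 0.46 each. The mean log2 ratio of the 10 markers was -0.22 and -0.18 on the PBS arrays and 0.12 and 0.20 on the APP arrays, with CD68 included. Their median change was 0.14, and the changes ran from -0.15 (CST3) to 2.31 (CD68). ITGAM also went down (-0.12), without passing. CSF1R, the growth factor receptor of these cells, changed by 0.13 (adjusted p = 0.284). The part of such cells in the change of TGFB1 was not tested.

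The receptors rose less. TGFBR1, the type I receptor kinase, stood at -0.27 with PBS and 0.76 with APP in calf 301, and at -0.36 and 0.21 in calf 303. The groups did not overlap, and the rise was 1.74-fold (log2 change 0.80 ± 0.32, SD, n = 2 calves, limma adjusted p = 0.00208), or -0.056 when scaled to the hybridization controls. Calf 301 changed by 1.02 and calf 303 by 0.57. In fits without the block that left out 1 array, the adjusted p was 0.0658 without PBS of calf 301 and 0.0963 without PBS of calf 303.

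TGFBR2, the type II receptor that binds the ligand first, stood at 0.04 with PBS and 0.28 with APP in calf 301, and at -0.46 and -0.07 in calf 303. APP of calf 303 lay below PBS of calf 301, so the groups overlapped and the rise was seen only within a calf. It was 1.25-fold (log2 change 0.32 ± 0.11, SD, n = 2 calves, limma adjusted p = 0.0322). Without the calf block the adjusted p was 0.283. The sign turned to -0.53 under the hybridization control scale. Fits that left out 1 array gave 0.0957 without PBS of calf 301, 0.68 without APP of calf 301, 0.854 without PBS of calf 303 and 0.165 without APP of calf 303 as adjusted p. Of its probe sets, Bt.28103.1.S1_at changed by 0.42 (adjusted p = 0.0264 over probe sets) and Bt.1789.1.S1_at by 0.22 (adjusted p = 0.171). The groups overlapped in Bt.28103.1.S1_at and did not in Bt.1789.1.S1_at.

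The SMAD genes did not move together. SMAD3, which binds DNA and carries much of the TGF-beta response in T cells, stood at -0.77 with PBS and 0.68 with APP in calf 301, and at -0.73 and 0.47 in calf 303. Both calves began close together and both APP arrays were higher. The rise was 2.51-fold (log2 change 1.33 ± 0.18, SD, n = 2 calves, limma adjusted p = 8.96e-05), and 0.48 when scaled to the hybridization controls. No array left out in turn ended the call, with changes between 1.22 and 1.43.

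SMAD3 had a pair of probe sets that rose by different amounts. Bt.3523.1.A1_at had ratios of 0.406 and 0.443 on the PBS arrays of calves 301 and 303 and 1.529 and 1.677 on the APP arrays, a change of 1.92 in the mean. Bt.20844.1.A1_at had 0.847 and 0.817 with PBS and 1.683 and 1.141 with APP, a change of 0.74, or -0.12 on the hybridization control scale. The gap of 1.18 between them was wider than that of 95.5% of the 2093 genes with 2 probe sets, whose median gap was 0.26. The first probe set stood at 1.07 on the hybridization control scale. Without PBS of calf 301, APP of calf 301 or PBS of calf 303, the second did not pass (adjusted p = 0.114, 0.0784 and 0.152).

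SMAD2, the close relative of SMAD3 with the same partner and receptor, stood at -0.08 with PBS and 0.03 with APP in calf 301, and at -0.01 and 0.00288 in calf 303. The change of 0.06 had a 95% interval from -0.17 to 0.29 (limma adjusted p = 0.613), and it read -0.79 on the hybridization control scale. The changes of SMAD3 and SMAD2 can be set against each other without regard to array scale, since a factor per array cancels. SMAD3, as the mean of its probe sets, rose more than SMAD2 by 1.34 in calf 301 and 1.19 in calf 303. The size depends on the probe set. Bt.20844.1.A1_at alone changed by 0.99 and 0.48, against 0.11 and 0.02 for SMAD2.

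SMAD4, the shared partner of all receptor-activated SMADs, stood at 0.18 with PBS and -0.24 with APP in calf 301, and at 0.32 and -0.26 in calf 303. Both APP arrays were below both PBS arrays. The fall was 1.42-fold (log2 change -0.51 ± 0.11, SD, n = 2 calves, limma adjusted p = 0.00479), deeper at -1.36 on the hybridization control scale. Without PBS of calf 303 the adjusted p was 0.11. Against SMAD2 within the same arrays, SMAD4 fell by 0.54 more in calf 301 and 0.60 more in calf 303.

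SMAD5, a carrier of BMP signals, had a mean change of -0.20 (95% interval -0.43 to 0.04, limma adjusted p = 0.141) that hid opposite movements. Bt.28468.1.A1_at had ratios of 1.163 and 1.435 on the PBS arrays of calves 301 and 303 and 0.667 and 0.826 on the APP arrays. That was a fall of 1.74-fold (-0.80 in each calf, adjusted p = 0.00173 over probe sets). Bt.28468.2.A1_at had 0.811 and 0.913 with PBS and 1.208 and 1.079 with APP, a rise of 0.41 (adjusted p = 0.0432), or -0.44 when scaled to the hybridization controls. Without PBS of calf 303 neither passed (adjusted p = 0.105 and 0.158), and without APP of calf 301 neither did (0.0559 and 0.206). The rise also missed the threshold without the calf block (0.0704), without PBS of calf 301 (0.313) and without APP of calf 303 (0.0702). Opposite calls of this kind were seen in 26 of the 2093 genes with 2 probe sets (1.24%). The table used for names does not say which transcripts of SMAD5 each probe set reads, so the mean stands for neither.

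**Figure D2:**
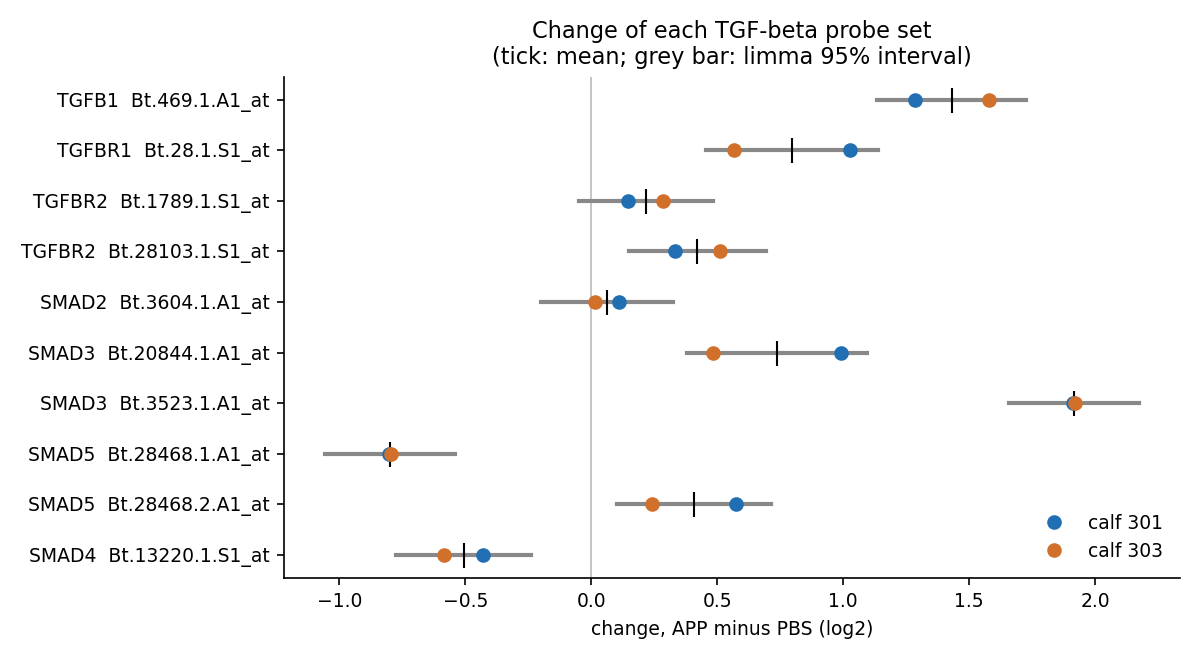
Change of each of the 10 probe sets in calf 301 and calf 303 (points), their mean (tick) and limma's 95% interval (grey bar), in log2 units, APP minus PBS. The SMAD5 probe sets lie on opposite sides of 0, at -0.80 and 0.41, and those of SMAD3 lie at 0.74 and 1.92.

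Over probe sets, 6 of the 10 rose and 2 fell, against 39.9% of all probe sets that passed (16.3% rising and 23.6% falling). Over genes, the PBS and APP arrays did not overlap for 6 of 7, where 73.8% of all genes did not overlap.

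Ordered by change, the genes ran TGFB1 (1.43), SMAD3 (1.33), TGFBR1 (0.80), TGFBR2 (0.32), SMAD2 (0.06), SMAD5 (-0.20) and SMAD4 (-0.51). TGFB1 and SMAD3 could not be ordered, since their difference was -0.17 in calf 301 and 0.38 in calf 303. SMAD3, as the mean of its probe sets, changed more than TGFBR1 by 0.43 and 0.63 in the calves. Its probe set Bt.20844.1.A1_at alone changed by 0.99 and 0.48, less than TGFBR1 at 1.02 and 0.57. TGFBR1 led TGFBR2 by 0.79 in calf 301 and by 0.17 in calf 303, a difference of 0.48 ± 0.44 (SD, n = 2 calves). TGFBR2 lay above SMAD2 by 0.13 and 0.38, and SMAD5 above SMAD4 by 0.32 and 0.31, with SMAD5 as the mean of its opposed probe sets. With 2 arrays per group an exact permutation test that ignores the calves cannot go below p = 0.33. Swaps within a calf are fewer still, and no permutation test was made.

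The calves differed in some of these genes at equal treatment. None of the 7 passed limma's adjusted threshold for calf 303 against calf 301 and 3 did at an unadjusted p under 0.05, beside 1.7% of all genes at the adjusted threshold and 17.1% unadjusted. TGFB1 was higher in calf 303 by 0.50 (adjusted p = 0.0895), while TGFBR2 was lower by 0.43 (-0.43, adjusted p = 0.102) and TGFBR1 lower by 0.32 (-0.32, adjusted p = 0.271). For TGFBR2 the difference was -0.71 in Bt.28103.1.S1_at and -0.15 in Bt.1789.1.S1_at. When scaled to the hybridization controls, TGFBR2 (-0.61, limma adjusted p = 0.00359) and TGFBR1 (-0.50, adjusted p = 0.0219) passed, beside 7.21% of all genes, and TGFB1 stood at 0.32. That scale shifts all genes of an array alike, and the shift enters both these differences and the fit's spread. Their adjusted p cannot be set beside those of the fit without that scaling.

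The arrays of the calves also stood apart in CD8 genes and in the gamma delta T cell marker TRGC4. CD8A was at -1.69 and -0.29 in PBS and APP of calf 301 and at 0.22 and 0.98 in calf 303, and CD8B at -1.06 and -1.70 against 1.24 and 0.59. TRGC4 was at -1.08 and -1.39 in calf 301 against 0.58 and 0.66 in calf 303. The part of these differences in the values of TGFB1 and the receptors was not tested. The response itself was larger in calf 303 by 0.29 for TGFB1 and smaller by 0.46 for TGFBR1 (-0.46), where the SD of this difference over all genes was 0.26. The fit leaves 1 residual degree of freedom, which is this difference, so it has no test.

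Genes with the array profile nearest to that of TGFB1, by Euclidean distance over the 4 log2 values, were UCK2 (distance 0.20, change 1.43), PTPRE (0.21, change 1.23) and BAZ1A (0.24, change 1.60). For SMAD4 they were CD2BP2 (0.0368), NDUFB3 (0.0373) and MFF (0.0375), with changes between -0.53 and -0.49. The distances are a description over 4 arrays.

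A wider list of 117 TGF-beta pathway genes was read from the same fit, of which 84 had a probe set. Of these 30 rose and 24 fell, or 18 and 21 without the calf block, with a median change of 0.12. The shares over all genes were 23% and 29.7%, or 15.3% and 23.6% without the block, so the falls were near the background. With any 1 array left out fewer of the list rose and fewer fell, and the same held over all genes. On the hybridization control scale 10 rose and 69 fell, beside 3.12% and 89.4% of all genes. SMAD1, SMAD6 and SMAD9 were on the list and were not analysed here.

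**Figure D3:**
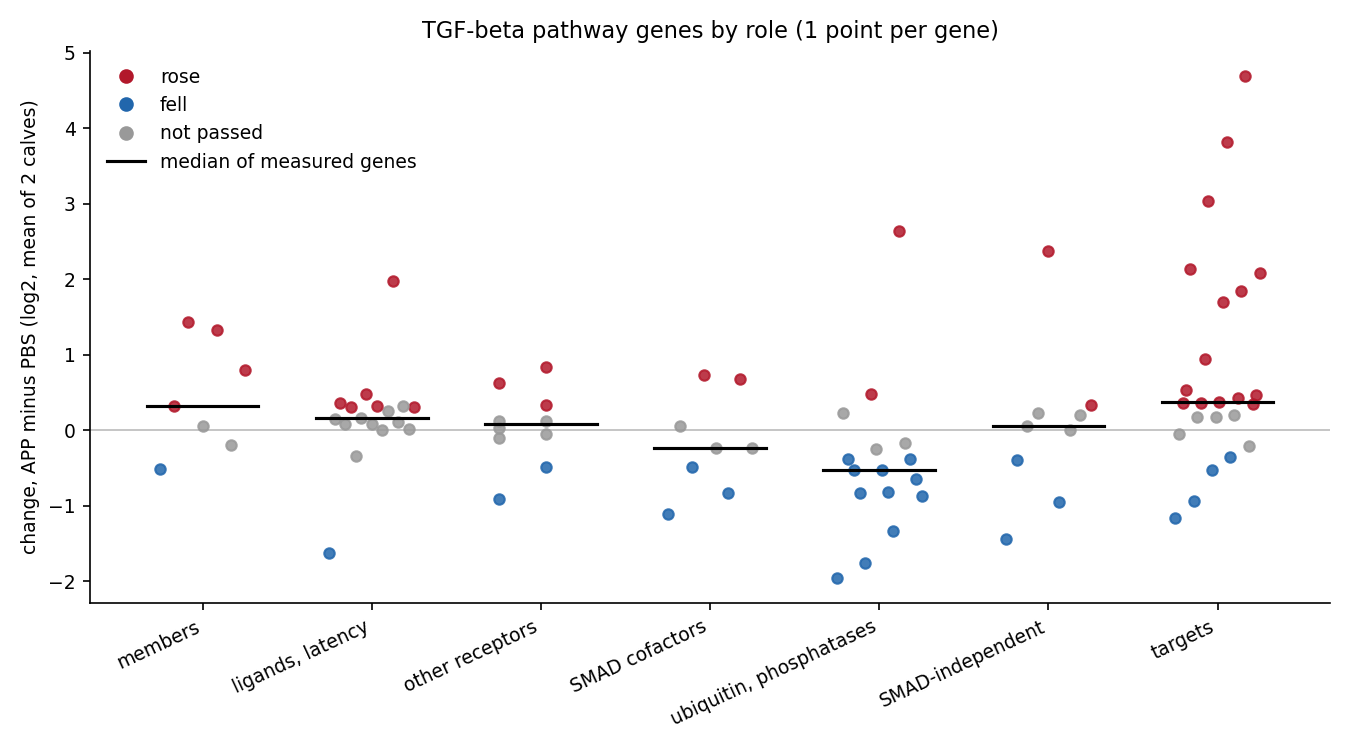
Change of each measured pathway gene (log2, APP minus PBS, mean of 2 calves) by role, coloured by limma's call, with the median of each role as a bar. Targets reach 4.69 at the top, and the group of ubiquitin ligases and phosphatases has the lowest median, at -0.53.

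Among 17 other genes of ligands and latency, 6 rose and 1 fell, beside 23% and 29.7% over all genes. Without the calf block 2 rose, beside 15.3% of all genes. Fewer than 6 rose with any 1 array left out. INHBA, the subunit gene of activin A, rose 3.92-fold. It stood at -1.12 with PBS and 0.57 with APP in calf 301, and at -1.05 and 1.20 in calf 303 (log2 change 1.97 ± 0.39, SD, n = 2 calves, limma adjusted p = 6.23e-05), so the groups were far apart. It stood at 1.12 on the hybridization control scale. The gene that fell was NRROS, which holds latent TGF-beta at the surface of myeloid cells, from 0.51 to -1.30 in calf 301 and from 0.62 to -0.81 in calf 303, 3.07-fold (adjusted p = 6.63e-05). The other named rises were small. THBS1, whose product can activate latent TGF-beta, rose by 0.48 (adjusted p = 0.0299), with changes from -0.15 to 1.36 over its 6 probe sets, and FURIN, the protease that cleaves the precursor, by 0.36 (adjusted p = 0.0187). These turned to -0.37 and -0.49 on the hybridization control scale. THBS1 did not pass without the block (adjusted p = 0.123), nor without PBS of calf 301 (0.248), PBS of calf 303 (0.265) or APP of calf 303 (0.291), nor with the median (0.078) or the most variable (0.0976) of its probe sets. FURIN did not pass without any 1 of the arrays (0.0512 to 0.177).

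Of 10 other receptor and coreceptor genes 3 rose and 2 fell, beside 23% and 29.7% over all genes. With any 1 array left out fewer of them rose and no more fell. FKBP1A, whose product FKBP12 binds the type I receptor and keeps it silent, rose by 0.83 (calf 301 at 0.80, calf 303 at 0.86, limma adjusted p = 0.000409). ACVR2A, an activin type II receptor, rose by 0.63 (adjusted p = 0.00163) and BAMBI, a decoy receptor, by 0.33 (adjusted p = 0.0297). On the hybridization control scale these 3 stood at -0.019, -0.23 and -0.52, so none kept its sign. The BMP receptor BMPR1A fell by 0.91 in the mean (-0.91, adjusted p = 0.00139), which came from 1 of its probe sets (-1.78 against -0.04). ENG, a coreceptor for TGF-beta ligands, changed by -0.48 in each calf (adjusted p = 0.00496). Leaving out PBS or APP of calf 301 or PBS of calf 303 ended the call of ENG (0.0638, 0.136 and 0.211), and ACVR2A did not pass without PBS of calf 301 (0.0927) or APP of calf 303 (0.0596). BAMBI passed neither without the block (0.0593) nor without any 1 array (0.0576 to 0.221).

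SMAD cofactors were measured for 8 genes, with 2 rising and 3 falling, beside 23% and 29.7% over all genes. E2F4, a partner of SMAD3 in repression of growth genes, rose by 0.74 (limma adjusted p = 0.000765) and TGIF1, a SMAD corepressor, by 0.68 (adjusted p = 0.0017). They stood at -0.11 and -0.17 on the hybridization control scale. HDAC1, a histone deacetylase recruited by such corepressors, fell 2.16-fold, from 0.40 to -0.70 in calf 301 and from 0.53 to -0.59 in calf 303 (adjusted p = 0.000114). The endosomal adaptor HGS fell by 0.83 (-0.83, adjusted p = 0.000399) and the corepressor NCOR1 by 0.49 (-0.49, adjusted p = 0.00783), with -0.89 to 0.05 over its 5 probe sets. TGIF1 did not pass without PBS of calf 303 (0.0535), and NCOR1 did not pass without PBS of calf 301 (0.133), APP of calf 301 (0.0733) or PBS of calf 303 (0.0529).

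Genes that tag, untag or dephosphorylate receptors and SMADs were grouped with PMEPA1, LDLRAD4 and STRAP, which are of other kinds. Of this group 11 of 16 fell and 2 rose, beside 29.7% and 23% over all genes, with a median of -0.53. Without the calf block 9 fell, beside 23.6% of all genes. With 1 array left out fewer of the group fell, except without APP of calf 303, and fewer of all genes fell. WWP1, a ubiquitin ligase of the same family as SMURF2, stood at 0.52 with PBS and -1.29 with APP in calf 301, and at 1.22 and -0.85 in calf 303. Its fall was 3.86-fold (log2 change -1.95 ± 0.19, SD, n = 2 calves, limma adjusted p = 2.51e-05). PMEPA1, a membrane protein that sequesters SMAD2 and SMAD3 and is itself a TGF-beta target, went from 0.74 to -0.91 in calf 301 and from 0.55 to -1.32 in calf 303, a 3.39-fold fall (adjusted p = 3.06e-05). WWP2 fell 2.51-fold (adjusted p = 7.49e-05). For these 3 genes both APP arrays lay below both PBS arrays, and the falls were deeper on the hybridization control scale (-2.80, -2.61 and -2.18). The other 8 that fell changed by between -0.86 (RNF111, a ligase that removes SKIL and SMAD7) and -0.38 (UCHL5 and LDLRAD4).

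The members of that group that rose were PPP1R15A and STRAP. PPP1R15A, which can bring a phosphatase to the type I receptor and is better known from the stress response, rose 6.20-fold (adjusted p = 1.17e-05). STRAP, a receptor-associated inhibitor, rose by 0.48 (adjusted p = 0.0139) and stood at -0.37 on the hybridization control scale. STRAP did not pass without the block (0.0785), nor without PBS of calf 301 (0.297), APP of calf 301 (0.145) or APP of calf 303 (0.172).

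In the arm that does not use SMADs, 2 of 9 genes rose and 3 fell. Both were near the shares over all genes, 23% and 29.7%. Without the block 1 rose, beside 15.3% of all genes. With any 1 array left out fewer rose and fewer fell. TRAF4, an adaptor of the receptor complex, rose 5.16-fold (calf 301 at 2.45, calf 303 at 2.29, limma adjusted p = 1.38e-05). MAPK14, the p38 alpha kinase, fell 2.71-fold (-1.41 and -1.47, adjusted p = 4.81e-05), with -1.82 to -1.14 over its 3 probe sets. TAB1, a partner of the kinase TAK1, fell by 0.95 (-0.95, adjusted p = 0.000566) and TAB2, another such partner, by 0.40 (-0.40, adjusted p = 0.0164). TAB2 did not pass without any 1 array (0.0748 to 0.24). SHC1, an adaptor to the ERK route, rose by 0.33 (adjusted p = 0.0231) but stood at -0.52 on the hybridization control scale, and it missed the threshold without the block (0.0632), without any 1 array (0.0753 to 0.307) and with the median of its probe sets (0.0946).

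Genes known as TGF-beta targets in some cell types rose in 15 of 24 cases and fell in 4, beside 23% and 29.7% over all genes, with a median of 0.37. With any 1 array left out fewer of the targets rose and fewer fell, and the same held over all genes. On the hybridization control scale 7 rose and 16 fell, beside 3.12% and 89.4% of all genes. Many of the targets also answer to other signals of T cell activation. They were listed without the direction in which TGF-beta moves each, so these counts do not measure the activity of the pathway. The largest rises were those of the cell cycle inhibitor CDKN1A (25.8-fold, 4.78 in calf 301 and 4.60 in calf 303), the transcription factor BHLHE40 (14.1-fold, 2.25 and 5.39 for its probe sets) and ID2, an inhibitor of helix-loop-helix factors (8.20-fold, 2.08 and 3.99 for its probe sets), with limma adjusted p between 2.36e-06 and 6.92e-06. They stayed at 3.84, 2.97 and 2.18 on the hybridization control scale. The sizes rest on low PBS ratios: with the pseudocount the log2 changes were 3.59, 2.96 and 2.55, and with quantile normalization 3.94, 3.43 and 2.81, against 4.69, 3.82 and 3.04 as reported. Under the filter on ratios under 0.2, CDKN1A gave no value, BHLHE40 2.25 and ID2 2.08, and with the most variable probe set they were 4.69, 5.39 and 3.99.

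Of the 4 targets that fell, ITGAE and TSC22D1 fell most. ITGAE encodes the alpha E integrin CD103, which TGF-beta induces on tissue T cells. It stood at 0.32 with PBS and -0.62 with APP in calf 301, and at 0.48 and -0.43 in calf 303, a fall of 1.90-fold (log2 change -0.93 ± 0.02, SD, n = 2 calves, limma adjusted p = 0.000247). TSC22D1, first isolated as a TGF-beta-stimulated transcript, went from 0.27 to -0.93 in calf 301 and from 0.77 to -0.35 in calf 303 (adjusted p = 0.000103), or 0.065 as adjusted p without PBS of calf 303. In both genes the APP arrays lay below the PBS arrays. SPSB1, which targets TGFBR2 for degradation, changed by -0.53 (adjusted p = 0.00414), and its call was lost without APP of calf 301 (0.112), PBS of calf 303 (0.177) or APP of calf 303 (0.052).

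**Figure D4:**
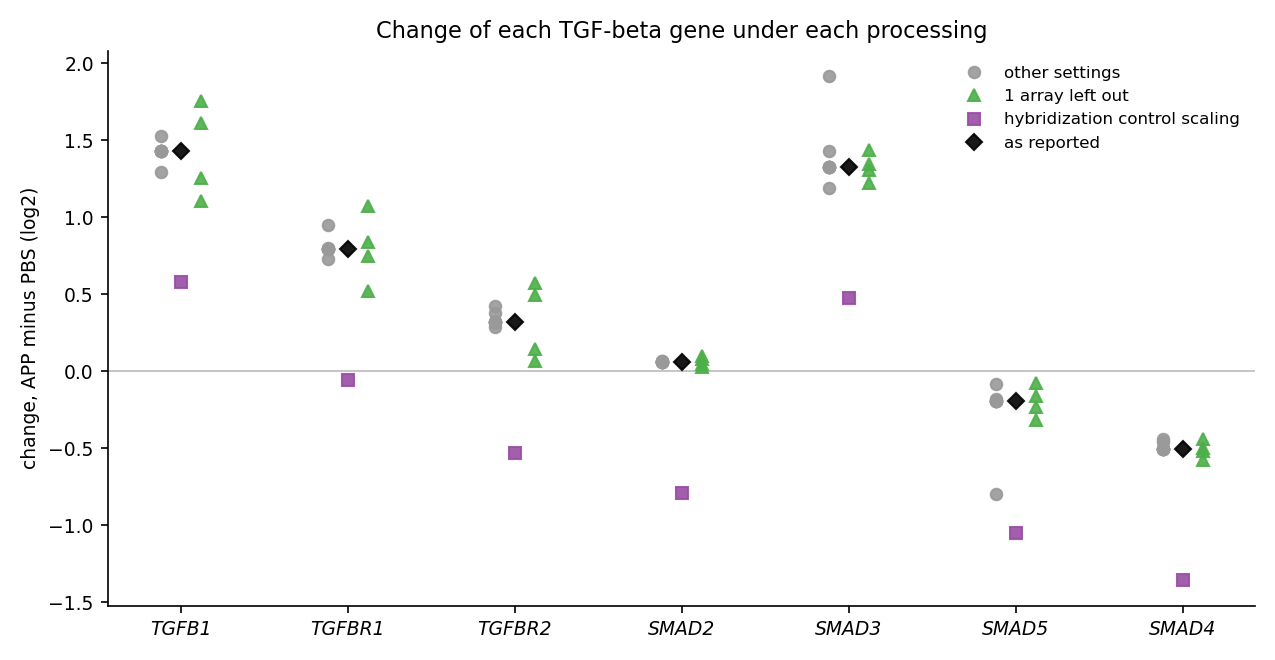
Change of each TGF-beta gene (log2, APP minus PBS) as reported (diamonds), with 1 array left out (triangles), scaled to the hybridization controls (squares) and under the other settings (circles). TGFB1 and SMAD3 stay above 0 and SMAD4 and SMAD5 below 0 in all of them, while TGFBR1, TGFBR2 and SMAD2 cross 0 under the hybridization control scale only.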

How the data were processed

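Probes were summarised with RMA by the authors, per the submitters' processing notes (version and options not given in the sources used here). The deposited values are linear ratios; the sources used here do not state the unit, which was read from the values (the mean of the 2 middle values of each probe set lay within 0.0185 of 1). Ratios were log2 transformed without further normalization, and 112 control probe sets were left out. Names came from the platform annotation, updated by identifier through RefSeq's ARS-UCD2.0 gene table (13263 of 13292 probe sets with 1 symbol; 86 had several symbols and 10638 none). Probe sets of a gene were averaged. Tests used limma 3.58.1 in R 4.3.3 (two-sided). The code was run on simulated data with few changed genes and noise drawn from the fit's own prior. That run could not test the array scale or a comparison with this many calls. The titles name the same calves in both treatments, which sets the block, and differences between the calves correlated across probe sets between PBS and APP (r = 0.514). Prior degrees of freedom were 5.86 for genes.

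The genes and lists were chosen with earlier results of these data known. Named genes are the 7 measured members, up to 3 rises and 3 falls per role with the same sign in both calves, and the 3 genes nearest in profile to the member with the largest rise and to that with the largest fall. RNF111, UCHL5, LDLRAD4, the CD8 genes and the calf values of TRGC4 were picked after their values were seen. No sequence is shown because none was given for these genes. Alternatives were no block, each array left out (without the block), median centring, quantile normalization, hybridization control scaling, a pseudocount of 0.1, a filter on ratios under 0.2, a robust prior, and the median or the most variable probe set of a gene. The number of arrays, 2 per treatment, limits the precision.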

Additional observations from a re-analysis of the deposited data

Results flagged for a closer look

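The hybridization control probe sets were outside the comparisons and read higher with APP. The 14 probe sets of bioB, bioC and bioD rose by 0.76 in calf 301 and 0.94 in calf 303, a mean of 0.85 on the log2 scale. By transcript the mean was 0.99 for bioB, 0.88 for bioC, 0.62 for bioD and 0.24 for cre. The hybridization control scale left out cre. Probe sets of the transcripts meant as labelling controls were higher too, by 0.33 (dap) to 0.54 (lys). The share of this in the changes of the TGF-beta genes was not tested.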

How the results depend on the processing

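Median centring, quantile normalization, the pseudocount, the filter and the robust prior left every call and sign of the 7 genes as reported. Scaled to the hybridization controls, TGFBR1 stood at -0.056, TGFBR2 at -0.53 (probe sets -0.64 and -0.43), SMAD2 at -0.79, the SMAD3 probe set Bt.20844.1.A1_at at -0.12 and the SMAD5 probe set Bt.28468.2.A1_at at -0.44. THBS1 (-0.37), FURIN (-0.49), FKBP1A (-0.019), ACVR2A (-0.23), BAMBI (-0.52), E2F4 (-0.11), TGIF1 (-0.17), STRAP (-0.37) and SHC1 (-0.52) turned their sign as well. On that scale 2 members differed between the calves, beside 7.21% of all genes, and 2 rose and 4 fell. Of their probe sets 2 rose and 6 fell, and of the pathway genes 10 rose and 69 fell. Over all genes 3.12% rose and 89.4% fell. The lower values follow from the shift of all genes by construction. The shift also enters the fit's spread, so calls on that scale cannot be set beside those of the fit without it.

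Without the replicate block, which the shared animals justify, 18 pathway genes rose in place of 30, and TGFBR2 was the only member whose call changed. With 1 array left out, 2 to 3 members rose and 0 to 1 fell, 2 to 4 member probe sets rose and 0 to 1 fell, and 14 to 17 pathway genes rose and 12 to 22 fell. Those fits have no block and assume that a lone array varies like the other group. With the most variable probe set per gene 2 members fell, since SMAD5 passed at -0.80.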
